A study of Rattus norvegicus with 35 samples.

Results

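Hippocampal RNA of ovary-intact female rats was compared with that of rats whose ovaries had been removed. The comparison rests on 10 of the 35 libraries of the series, chosen by their treatment label alone: 5 from sham-operated animals and 5 from ovariectomised animals given vehicle. All were female Sprague Dawley rats operated at 6 months of age, and a washout of 2 weeks and a treatment period of 7 days followed surgery. The sham group kept its ovaries, with estrous cycle stage not given in the sources used here. Whether sham animals received vehicle is not stated either, so loss of the ovaries and vehicle dosing cannot be told apart. A further group of 5 ovariectomised rats, given 17β-estradiol for the same 7 days, is used below for reference levels. No statement ties the libraries of a group to separate surgeries or days, so p-values measure the spread between these libraries.

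Ovariectomy removes the main source of circulating estradiol and progesterone. Both hormones act through nuclear receptors that bind DNA or other transcription factors, and estradiol also acts at membranes. The hippocampus expresses these receptors at low levels, and spine density, plasticity genes and neuropeptides there are known to respond to estradiol. Rn7sl1, given beside the results as a percent of each library's counts, is the RNA of the signal recognition particle. It is a short noncoding RNA that usually lacks a poly(A) tail, and its share is uneven between the libraries of the series.

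Rn7sl1 took 5.36, 5.14, 4.47, 4.96 and 4.82% of the counts in sham replicates 1 to 5. In the vehicle replicates it took 4.70, 4.84, 4.74, 3.44 and 4.68%. Vehicle replicate 4 was alone below 4%, and the other vehicle libraries lay within the sham range. The means were 4.95 ± 0.333% in sham and 4.48 ± 0.585% in vehicle (SD, n = 5 each), a difference of 0.469 points (exact two-sided permutation p = 0.143, n = 5 against 5). Without vehicle replicate 4 the difference was 0.209 points. Totals of assigned counts ran from 6.64 M to 11.57 M in sham (M for mega) and from 7.25 M to 9.29 M in vehicle.

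Sham replicate 1 stood apart in tissue content. Its mean over 12 thalamus and habenula genes was 4.49 log2 CPM (counts scaled to a common library total), against 3.19 to 3.56 in the other sham libraries and 3.18 to 3.48 in vehicle. Tcf7l2, a transcription factor that marks thalamic neurons, was at 90.7 CPM there, 9.20 to 14.4 CPM in the other sham libraries and 9.46 to 12.3 CPM in vehicle. Pyramidal cell genes of CA1, CA2 and CA3 averaged 5.37 log2 CPM in that library and 5.74 to 5.82 in the other 9. Choroid plexus was carried into some libraries of both groups: its leading gene Ttr, the thyroid hormone carrier transthyretin, read 1375, 1771, 944, 3.85 and 3.27 CPM in sham and 5.92, 65.8, 1848, 2766 and 8.25 CPM in vehicle. The dentate granule cell marker Prox1 was at 70.1 to 138.7 CPM in the 10 libraries, so hippocampal tissue was present in each. Values without sham replicate 1 are therefore given beside many results where it was extreme. Where none is given, the result may still depend on that library.

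**Figure D1:**
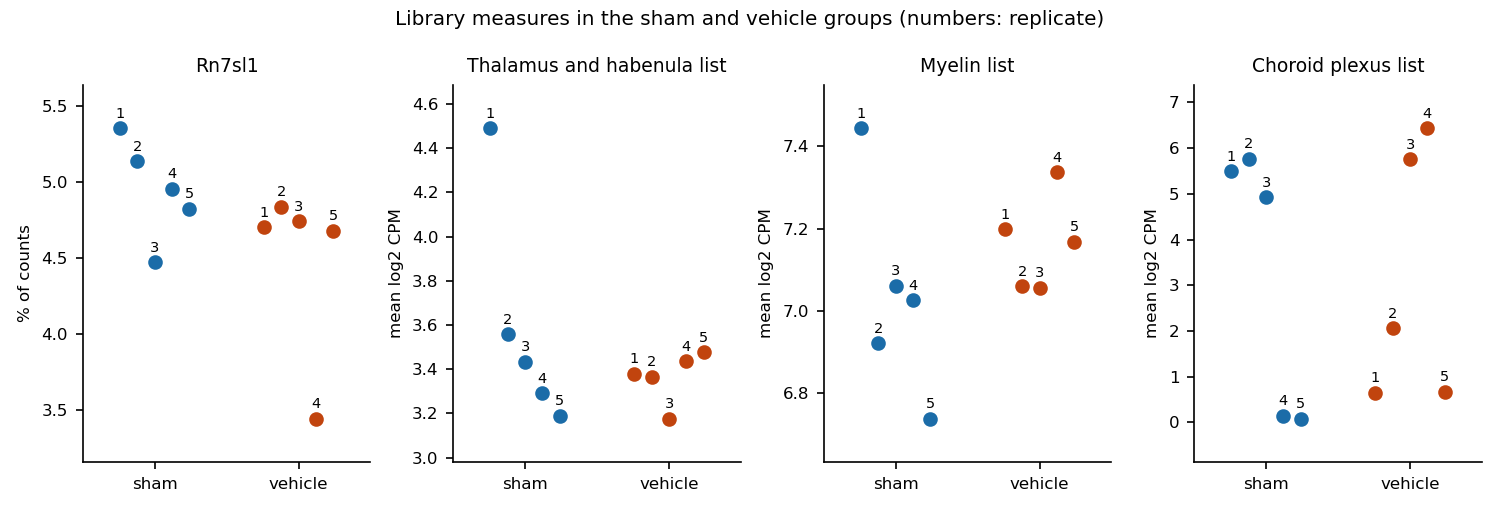
Rn7sl1 share of counts and the mean log2 CPM of the thalamus, myelin and choroid plexus lists in each sham and vehicle library, with points numbered by replicate. Vehicle replicate 4 sits alone at 3.44% Rn7sl1, and sham replicate 1 sits alone at a thalamus mean of 4.49.

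No gene passed an adjusted p of 0.05 between sham and vehicle (percent called 0 of 14411 genes tested, edgeR's quasi-likelihood test). The smallest adjusted p was 0.0635, shared by Tpbg, Tacr3, Dbp, Gstp1 and Per3. At an unadjusted p under 0.05 stood 980 genes, 6.8% of those tested, of which 497 (3.45%) were higher and 483 (3.35%) lower in sham. The 5 sham and 5 vehicle values did not overlap in 211 genes (1.46%). DESeq2 called 12 genes on the same libraries, and limma with library quality weights called 8. With the Rn7sl1 class of each library (under 4% or not) as a term, edgeR called 6 genes (0.0416%), namely Dbp, Gstp1, Per3, Tacr3, Tpbg and Vgf, each at an adjusted p of 0.0466. Of the 10 libraries only vehicle replicate 4 is under 4%, so this term draws mostly on libraries of the drug groups. Without vehicle replicate 4, or with only libraries of at least 4% in the fit, edgeR called none. With the log2 Rn7sl1 percent itself as a term it called none, with a smallest adjusted p of 0.0585. At an unadjusted p under 0.05 stood 6.09% of all genes without sham replicate 1, 5.22% without vehicle replicate 4, 4.16% without both, 9.5% with the log2 Rn7sl1 percent as a term and 10.1% with the class. All differences below are therefore candidates ordered by their p, described by their values, and words such as higher and lower are used without a call.

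Tpbg encodes trophoblast glycoprotein, a membrane protein that inhibits Wnt signalling. It read 23.8, 12.2, 11.02, 13.4 and 8.69 CPM in sham and 7.30, 7.75, 5.95, 5.91 and 5.75 CPM in vehicle. Every sham library lay above every vehicle library, the highest being the thalamus-rich sham replicate 1. The log2 fold change was 1.09 ± 0.21 (SE; edgeR adjusted p = 0.0635). It was 0.79 without that library (adjusted p = 0.25), and 1.04 with the log2 Rn7sl1 percent as a term.

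Tacr3 encodes the receptor for neurokinin B, a tachykinin known from the reproductive hypothalamus. Its values were 5.79, 10.3, 8.94, 10.5 and 8.60 CPM in sham against 5.23, 4.56, 5.82, 3.90 and 5.10 CPM in vehicle. Here sham replicate 1 was the lowest of its group and the only sham library inside the vehicle range. The log2 fold change was 0.83 ± 0.17 (adjusted p = 0.0635) with all libraries and 0.95 without that library, where edgeR called the gene at an adjusted p of 0.0116. With the Rn7sl1 term it was 0.83.

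Gstp1, a glutathione transferase that conjugates electrophiles, was lower in sham. Sham libraries read 50.6, 48.4, 53.3, 41.3 and 45.0 CPM and vehicle libraries 63.5, 62.4, 67.1, 64.5 and 60.9 CPM. The groups were separated by a gap, and vehicle replicate 4, with its Rn7sl1 of 3.44%, lay in the middle of its group. The log2 fold change was -0.42 ± 0.08 (adjusted p = 0.0635), with -0.44 when sham replicate 1 was left out and -0.41 with the Rn7sl1 term.

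Vgf, the precursor of secreted neuropeptides of large dense-core vesicles, read 120.0, 114.3, 117.8, 112.7 and 117.4 CPM in sham. In vehicle it read 97.5, 79.0, 102.0, 57.3 and 79.6 CPM. The sham libraries were tightly grouped and all above vehicle, and vehicle replicate 4, the library of lowest Rn7sl1, was the lowest. The log2 fold change was 0.49 ± 0.14 (adjusted p = 0.408), 0.40 with the Rn7sl1 class as a term and 0.39 without vehicle replicate 4 (edgeR adjusted p = 0.837).

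Nr3c2, the mineralocorticoid receptor, was lower in sham at 66.5, 90.9, 94.6, 97.9 and 85.7 CPM, with vehicle at 108.6, 107.4, 100.7, 116.8 and 123.4 CPM. No sham library reached the lowest vehicle library. The log2 fold change of -0.36 ± 0.08 (adjusted p = 0.183) was -0.27 without sham replicate 1 and -0.36 with the Rn7sl1 term. Nr3c1, the glucocorticoid receptor, read 82.8 ± 3.13 CPM in sham and 94.8 ± 11.1 CPM in vehicle (SD, n = 5 each), and its highest value, 113 CPM, came from vehicle replicate 4. Of 22 corticosteroid receptor and target genes tested, 2 were higher and 1 lower at an unadjusted p under 0.05 (13.6%, against 6.8% of all genes). The glucocorticoid targets Fkbp5 and Sgk1 differed by -0.02 and 0.18 on the log2 scale with standard errors of 0.10 and 0.21.

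Kcna3, a voltage-gated potassium channel, was higher in sham (32.2 ± 3.99 against 24.3 ± 2.82 CPM, SD, n = 5 each), with no overlap. Its highest value, 38.8 CPM, was in sham replicate 1, and its log2 fold change of 0.41 was 0.33 without it. Camk1g, a calcium and calmodulin dependent kinase, read 24.2 to 26.97 CPM in sham and 18.9 to 21.5 CPM in vehicle. Its log2 fold change of 0.40 ± 0.10 (adjusted p = 0.307) was 0.42 without sham replicate 1, so that library did not carry it. Kcnk9, a leak potassium channel, was higher at 36.8 ± 5.67 against 27.01 ± 3.62 CPM, with a log2 fold change of 0.45, or 0.36 without sham replicate 1, its highest library. Pex11a, which takes part in peroxisome division, read 8.97 to 9.89 CPM in sham and 4.57 to 6.84 CPM in vehicle. The sham range of Pex11a was narrow and its vehicle minimum was again replicate 4, and its log2 fold change was 0.72 ± 0.22, or 0.75 with the Rn7sl1 term.

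Among genes lower in sham, Epha7, an ephrin receptor, read 75.6 ± 20.3 against 108 ± 8.76 CPM (SD, n = 5 each), with its lowest value, 47.2 CPM, in sham replicate 1. Without that library its log2 fold change of -0.51 was -0.38. Swap70, a regulator of Rac signalling, read 15.6 to 19.01 CPM in sham and 19.1 to 24.4 CPM in vehicle. Hpgd, which inactivates prostaglandins, read 0.98 to 1.32 CPM in sham and 1.39 to 2.71 CPM in vehicle, a log2 fold change of -0.86 ± 0.22 (adjusted p = 0.307). Lrrc8d, a subunit of volume-regulated anion channels, and Aph1b, a subunit of gamma-secretase, differed by -0.21 and -0.27 on the log2 scale. Medag, named for estrogen-dependent adipogenesis in mesenteric fat, read 4.10, 6.77, 5.76, 7.82 and 8.86 CPM in sham and 10.1, 9.35, 12.2, 11.3 and 9.01 CPM in vehicle. Its groups did not overlap, and its log2 fold change was -0.63 ± 0.15 (adjusted p = 0.183), or -0.50 without sham replicate 1, the lowest of its group. Zfp46, a zinc finger gene, also had no overlap (-0.29 ± 0.07 on the log2 scale, or -0.24 without sham replicate 1, its lowest library).

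Several differences of large fold became smaller, to different degrees, without the thalamus-rich library. Mab21l1 read 9.98 CPM in sham replicate 1 and 1.62 to 3.30 CPM in the other sham libraries, and its log2 fold change of 1.46 was 0.73 without that library. Phlda3 (28.3 CPM there, 9.25 to 9.89 CPM in the others) went from 0.70 to 0.21. Grin2d, the GluN2D subunit of the NMDA receptor, went from 0.62 to 0.30, and Tmem132c from 1.20 to 0.71. Tac1, the precursor of substance P, read 22.99 CPM in sham replicate 1 and 3.06 to 7.65 CPM in the others, and its log2 fold change of 1.17 was 0.44 without it.

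The remaining genes of largest difference without overlap were mostly low in counts. Lrrc43 (2.42 ± 0.591 against 1.16 ± 0.411 CPM, SD, n = 5 each), Aifm3, Tmem145 and Tlnrd1 were higher in sham. The transcription factor genes Sp8 and Ikzf3, the sialophorin gene Spn, the chromatin protein gene Hmgb2, the kinase gene Vrk1 and RGD1310819 were lower. Sham replicate 1 held the highest Aifm3 value (59.5 CPM) and the lowest RGD1310819 value (103 CPM), and without it their log2 fold changes went from 0.48 to 0.33 and from -0.42 to -0.26. Sp8 read 0.15 to 1.23 CPM in sham and 1.30 to 1.88 CPM in vehicle, a log2 fold change of -1.26 ± 0.36 (adjusted p = 0.408). Ikzf3 read 0.59 to 0.77 CPM in sham and 0.96 to 2.17 CPM in vehicle. Counting error matters at this level, since the libraries hold 6.64 M to 11.57 M counts.

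**Figure D2:**
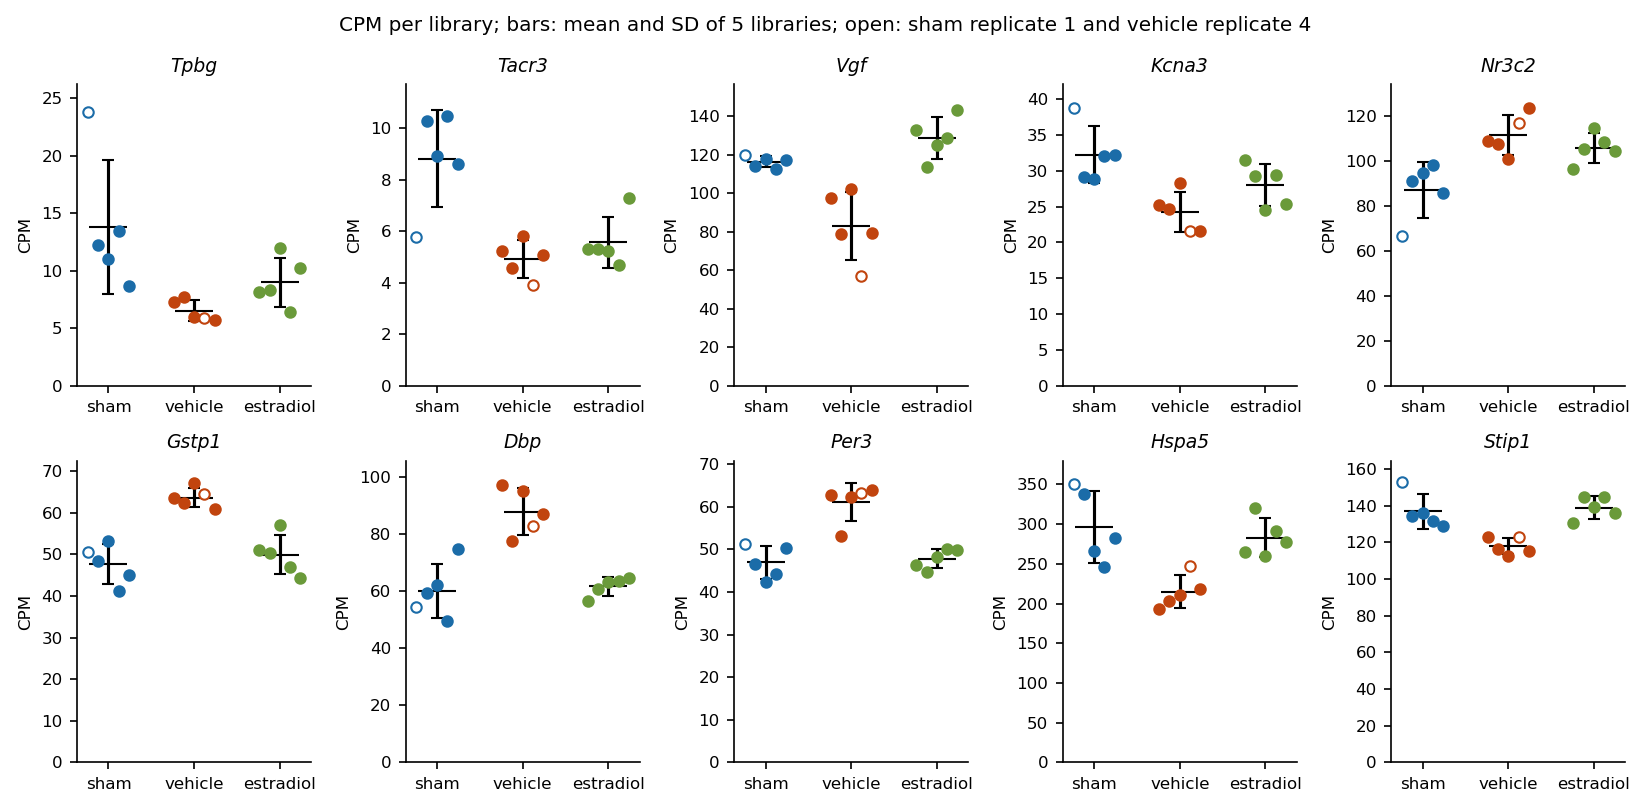
CPM of 10 genes in each sham, vehicle and estradiol library, with black bars for the mean and SD of 5 libraries and open points for sham replicate 1 and vehicle replicate 4. Dbp, Per3, Gstp1 and Stip1 in the estradiol libraries sit at sham levels, while Tacr3 and Nr3c2 sit nearer vehicle levels. Vgf in the estradiol libraries sits at or above sham levels.

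Hspa5, Hyou1 and Manf were among 10 genes of an endoplasmic reticulum chaperone list that were higher in sham. Chaperones of the reticulum fold new membrane and secreted proteins, and the unfolded protein response raises their transcription through Xbp1 and Atf6. Of 30 listed genes, all tested, 10 were higher and 1 lower at an unadjusted p under 0.05, against 3.45% and 3.35% of all genes. The median log2 fold change was 0.11, with -0.004 over all genes tested. None passed the adjusted threshold in edgeR.

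Hspa5, the chaperone BiP, read 350, 338, 266, 247 and 283 CPM in sham and 193, 203, 211, 248 and 219 CPM in vehicle. The groups met at a single point, with sham replicate 4 just under vehicle replicate 4. Its log2 fold change was 0.47 ± 0.11 (adjusted p = 0.183). Hyou1, a nucleotide exchange factor for BiP, read 163.5 to 188.5 CPM in sham and 146.9 to 155.0 CPM in vehicle, with no overlap. Its log2 fold change was 0.21 ± 0.05 (adjusted p = 0.193), or 0.18 without sham replicate 1, its highest library. Manf, a secreted protein of the reticulum that binds BiP, read 24.9 to 32.2 CPM against 19.5 to 24.3 CPM, also without overlap (0.36 ± 0.10). Sdf2l1, a BiP cofactor, read 9.63, 9.85, 6.00, 5.94 and 5.94 CPM in sham and 4.33 to 5.82 CPM in vehicle. The disulfide isomerases Pdia4 and Pdia6 differed by 0.33 and 0.23, the lectin chaperone Calr by 0.17, the cochaperone Dnajc3 by 0.26 and the transcription factor Xbp1 by 0.20 on the log2 scale. Cdk2ap2, the tenth, differed by 0.23. The one lower member was Edem1, which takes part in degradation of misfolded glycoproteins (-0.18). The stress sensors Ern1 and Eif2ak3, Atf4 and Ddit3 did not pass the unadjusted threshold.

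Sham replicates 1 and 2 had the highest values of Hspa5, Pdia4, Sdf2l1 and Dnajc3, and these libraries also had the highest Rn7sl1, at 5.36 and 5.14%. Vehicle replicate 4, with the lowest Rn7sl1, had the highest vehicle values of Hspa5, Pdia4, Pdia6 and Dnajc3. With the log2 Rn7sl1 percent as a term 11 members were higher and 1 lower (40% of the list, 9.5% of all genes), and Hspa5 stayed at 0.47. Without sham replicate 1, 7 were higher and 1 lower (6.09% of all genes in either direction), with a list median of 0.093. Hspa5, highest in that library, was then at 0.40. Without vehicle replicate 4, 13 were higher and none lower (5.22% of all genes). Without both libraries 9 were higher and 1 lower (4.16% of all genes), with Hspa5 at 0.46.

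**Figure D3:**
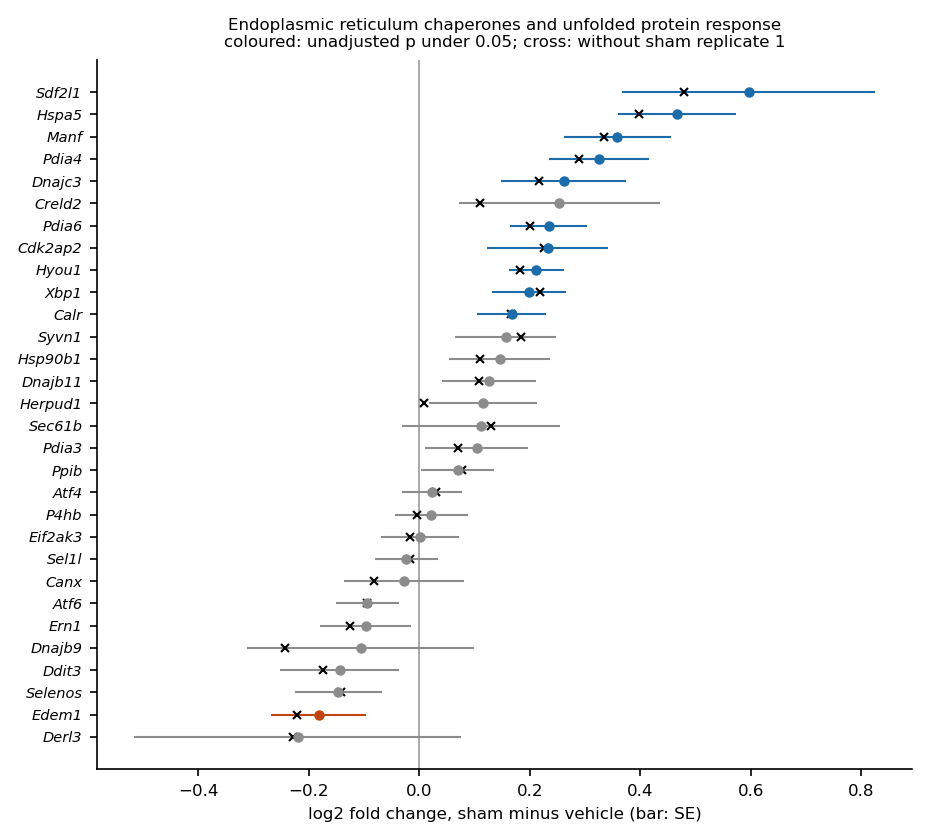
Log2 fold change of sham over vehicle for 30 endoplasmic reticulum chaperone and unfolded protein response genes, with bars for the standard error, colour for an unadjusted p under 0.05 and crosses for the value without sham replicate 1. The 10 blue points lie to the right of 0, led by Sdf2l1 at 0.60 and Hspa5 at 0.47, and 1 red point, Edem1 at -0.18, lies to the left.

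The endoplasmic reticulum stress element, a CCAAT and a CCACG held 9 bases apart, is the sequence through which Atf6 and Xbp1 are known to act. It was searched on both strands in RefSeq promoters of the GRCr8 assembly, from 250 bases before to 50 bases after each gene's start. It was present in 17 of 11760 promoters of tested genes, or 0.145%. Of the 24 list members with 1 promoter in that table, 8 held it. Of the 10 higher members, 7 had a promoter there and 4 held the element (Hspa5, Xbp1, Calr and Dnajc3), and Hsp90b1, Canx, Creld2 and Derl3 held it without passing the unadjusted threshold. Canx and Derl3 had log2 fold changes below 0. Those of Hspa5, Xbp1 and Calr are shown because they carry the element at different distances from the start, with the element in capitals. Hspa5 lies on the plus strand at chr3:38452766-38453065, Xbp1 on the plus strand at chr14:84604373-84604672 and Calr on the plus strand at chr19:40213117-40213416. In Calr the match is on the opposite strand, so it reads CGTGG first.
Hspa5: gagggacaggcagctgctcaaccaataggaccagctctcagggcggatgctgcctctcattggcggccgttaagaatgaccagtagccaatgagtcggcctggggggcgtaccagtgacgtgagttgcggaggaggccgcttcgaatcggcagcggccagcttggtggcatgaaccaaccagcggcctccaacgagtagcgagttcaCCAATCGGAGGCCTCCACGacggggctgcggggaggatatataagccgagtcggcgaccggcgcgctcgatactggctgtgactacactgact
Xbp1: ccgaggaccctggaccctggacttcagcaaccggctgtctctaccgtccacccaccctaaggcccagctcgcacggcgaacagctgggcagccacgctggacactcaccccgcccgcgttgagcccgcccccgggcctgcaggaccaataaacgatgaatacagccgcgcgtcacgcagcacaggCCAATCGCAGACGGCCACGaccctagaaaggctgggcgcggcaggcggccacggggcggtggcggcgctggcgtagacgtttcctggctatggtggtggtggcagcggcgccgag
Calr: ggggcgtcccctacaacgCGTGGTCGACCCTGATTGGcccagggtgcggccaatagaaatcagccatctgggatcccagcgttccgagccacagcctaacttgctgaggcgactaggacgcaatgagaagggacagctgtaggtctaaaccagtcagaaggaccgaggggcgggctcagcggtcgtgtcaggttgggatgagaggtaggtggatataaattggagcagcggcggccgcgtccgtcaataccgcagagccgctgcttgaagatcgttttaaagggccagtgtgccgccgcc
The element ended 25 bases before the start in Hspa5, 47 before it in Xbp1 and 214 before it in Calr. A match is a description of these letters and not evidence of binding.

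Cochaperones of Hsp90 help hold steroid receptors in a state able to bind hormone, and Stip1, Fkbp4 and Ahsa1 among them were higher in sham. Of 24 heat shock and cochaperone genes tested, 4 were higher and none lower at an unadjusted p under 0.05, beside 3.45% and 3.35% of all genes. Stip1, which links Hsp70 to Hsp90, read 153, 135, 136, 131 and 129 CPM in sham and 123, 116, 113, 123 and 115 CPM in vehicle. The groups did not overlap, and sham replicate 1 was the highest. Its log2 fold change was 0.22 ± 0.05 (adjusted p = 0.183), or 0.17 without that library. Fkbp4, the immunophilin of steroid receptor complexes, read 109.5 to 130.2 CPM against 98.1 to 111.5 CPM (0.22 ± 0.06; adjusted p = 0.346). Ahsa1, which stimulates the Hsp90 ATPase, differed by 0.16 and had no overlap. Bag3 differed by 0.43 but by 0.22 without sham replicate 1. Vehicle replicate 4 held the highest vehicle values of the chaperones Hspa8 (132.5 CPM) and Hsp90aa1 (1037 CPM). With the log2 Rn7sl1 percent as a term 9 members were higher and none lower, in a fit where the share of all genes rose from 6.8% to 9.5%. Without sham replicate 1, 3 were higher and none lower (Fkbp4, Hsph1 and Stip1), or 12.5% against 6.09% of all genes. Without vehicle replicate 4, 5 were higher and none lower (20.8%, against 5.22%). Without both libraries the same 3 genes were higher (12.5%, against 4.16%).

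Clock genes showed differences in both directions. In the circadian clock, Arntl and Clock activate the Per, Cry, Nr1d and Dbp genes through E-boxes, and the products of Per, Cry and Nr1d repress that activation. The time of day of collection is not given in the sources used here. Of 21 clock genes tested, 5 were lower and 3 higher in sham at an unadjusted p under 0.05 (38.1%, against 6.8% of all genes). Of the lower ones, 4 had no overlap (1.46% of all genes).

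Dbp, an output gene of the clock, read 54.6, 59.3, 62.2, 49.7 and 74.6 CPM in sham and 97.2, 77.4, 94.9, 82.8 and 86.9 CPM in vehicle. All sham libraries lay below all vehicle libraries, with a log2 fold change of -0.55 ± 0.11 (adjusted p = 0.0635). Per3, a period gene, read 51.3, 46.6, 42.3, 44.1 and 50.3 CPM in sham and 62.6, 53.1, 62.3, 63.3 and 64.0 CPM in vehicle. Its groups were close at 1 library only, vehicle replicate 2. Its log2 fold change was -0.38 ± 0.08 (adjusted p = 0.0635), and without sham replicate 1 it was -0.41 and called at an adjusted p of 0.0459.

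Ciart, a repressor of the clock activators, read 2.65 to 4.51 CPM in sham and 4.57 to 7.21 CPM in vehicle (-0.64 ± 0.17; adjusted p = 0.346). Nr1d2, a nuclear receptor that represses Arntl, read 69.7 to 84.8 CPM in sham and 85.0 to 107.5 CPM in vehicle (-0.36 ± 0.13). Its highest value was in vehicle replicate 4, and with the Rn7sl1 term its difference was -0.26. Nr1d1, its paralog, differed by -0.28 with overlapping groups. In the other direction Arntl differed by 0.27 ± 0.08 (33.97 ± 3.70 against 28.2 ± 2.14 CPM, SD, n = 5 each), Nfil3, a repressor at the sites Dbp binds, by 0.48 ± 0.18, and Cry1 by 0.24 ± 0.11. Per1, Per2, Clock, Tef and Hlf did not pass the unadjusted threshold.

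Leaving out sham replicate 1 gave 4 higher and 4 lower clock genes (38.1%, against 6.09% of all genes). Npas2 and Per2 stood in place of Cry1 and Nr1d1. Leaving out vehicle replicate 4, or adding the log2 Rn7sl1 percent, gave 3 higher and 5 lower. That was 38.1% of the list in each setting, against 5.22% and 9.5% of all genes. Without both libraries 5 were lower and only Arntl was higher, with Nfil3 and Cry1 no longer past the unadjusted threshold (28.6% of the list, 4.16% of all genes). Dbp was -0.51 and -0.56 without the one and the other library, and -0.56 with the Rn7sl1 term.

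**Figure D4:**
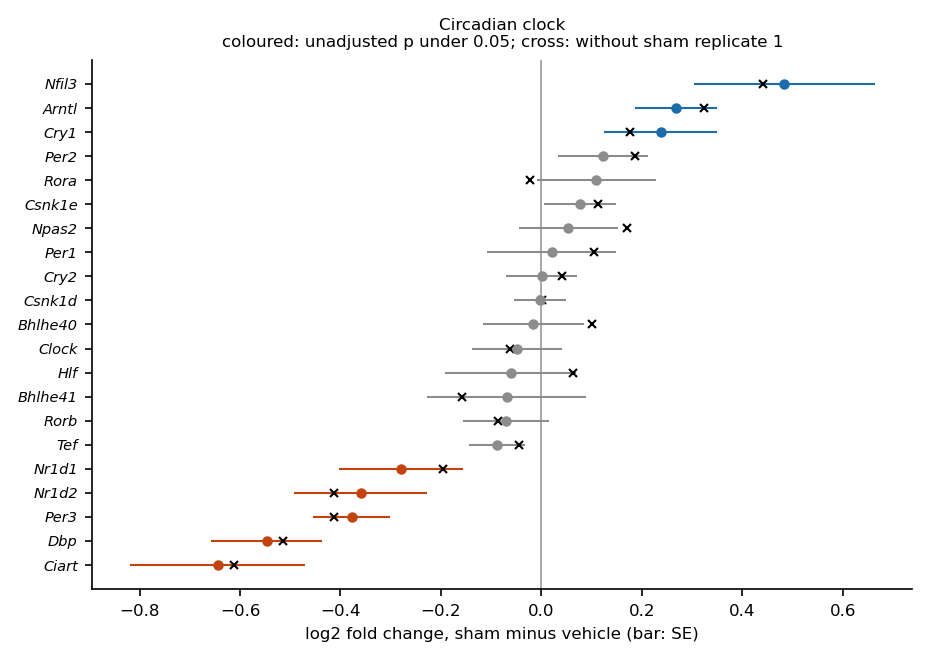
Log2 fold change of sham over vehicle for 21 circadian clock genes, with bars for the standard error, colour for an unadjusted p under 0.05 and crosses for the value without sham replicate 1. Ciart at -0.64, Dbp at -0.55, Per3 at -0.38, Nr1d2 at -0.36 and Nr1d1 at -0.28 lie below 0, and Nfil3 at 0.48, Arntl at 0.27 and Cry1 at 0.24 lie above it.

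Ciart, lower in sham, held 3 E-boxes in the promoter window, matches to CACGTG, a sequence that reads the same on both strands. An E-box was present in 9.01% of promoters of tested genes. Of the 15 clock list members with 1 promoter in that table, 4 held one. Dbp, Per3 and Nr1d2, also lower in sham, had promoters there without an E-box. Vgf held 1 E-box and 1 cAMP response element (TGACGTCA, through which CREB acts), the latter present in 2.93%. Both are shown for these sequences, in capitals. Ciart lies on the minus strand at chr2:186112197-186112496 and Vgf on the minus strand at chr12:25276971-25277270.
Ciart: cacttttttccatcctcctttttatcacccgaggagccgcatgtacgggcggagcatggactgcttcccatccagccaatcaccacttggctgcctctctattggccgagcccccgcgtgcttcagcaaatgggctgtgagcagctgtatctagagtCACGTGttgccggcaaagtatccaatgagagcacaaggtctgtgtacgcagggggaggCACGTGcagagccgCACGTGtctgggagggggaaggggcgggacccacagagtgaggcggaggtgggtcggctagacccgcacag
Vgf: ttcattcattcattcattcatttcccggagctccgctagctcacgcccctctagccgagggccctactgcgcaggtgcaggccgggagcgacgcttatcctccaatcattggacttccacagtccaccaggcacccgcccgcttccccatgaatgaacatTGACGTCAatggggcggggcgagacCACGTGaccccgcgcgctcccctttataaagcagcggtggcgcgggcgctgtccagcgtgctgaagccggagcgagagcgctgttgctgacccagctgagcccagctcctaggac
The response element of Vgf lay 90 to 83 bases and its E-box 65 to 60 bases before the start. The palindromic estrogen response element was found in 1 of the 11760 promoters of tested genes in this window.

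Secretory granule genes followed Vgf in part. Of 26 tested, 4 were higher and 1 lower at an unadjusted p under 0.05 (19.2%, against 6.8% of all genes). Chga, the granule protein chromogranin A, read 121.9 to 145.7 CPM in sham and 95.3 to 116.8 CPM in vehicle, without overlap (0.24 ± 0.08; adjusted p = 0.522), and its lowest value was in vehicle replicate 4. Adcyap1, the precursor of the neuropeptide PACAP, differed by 0.34 ± 0.15, and Tac1 is described above. Cpe, the granule carboxypeptidase, differed by -0.13. Scg2, another granin, read 257 CPM in sham replicate 1 and 148 to 168 CPM in the other sham libraries, within the vehicle range of 145 to 192 CPM. Without sham replicate 1 the count was 5 higher and none lower (Adcyap1, Cck, Chga, Sst and Vgf). That was 19.2% of the list, against 6.09% of all genes. Without vehicle replicate 4 as well the count was 3 higher (Adcyap1, Tac1 and Vgf), or 11.5% against 4.16%.

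Of 28 neuropeptide receptor genes, 7 were higher and 1 lower at an unadjusted p under 0.05 (28.6%, against 6.8% of all genes). Without sham replicate 1, 2 were higher and 1 lower (10.7%, against 6.09%). The 2 were Tacr3 and the somatostatin receptor Sstr1, and the lower one was Npy2r, a neuropeptide Y receptor (4.37 ± 0.714 against 6.23 ± 2.11 CPM, SD, n = 5 each). Oprm1, the mu opioid receptor, read 16.8 CPM in sham replicate 1, and its log2 fold change of 0.48 was 0.18 without it. Presynaptic genes showed the same dependence. Of 35 tested, 6 were higher and 2 lower (22.9%), and 1 was higher without that library (2.86%, below the 6.09% of all genes). Slc17a6, the glutamate transporter of thalamic neurons, was at 135.6 CPM there and at 15.8 to 18.97 CPM in the other sham libraries, and its log2 fold change of 1.17 was -0.07 without it. The one that remained, Rims3 of the active zone, read 29.95, 20.003, 22.2, 20.7 and 19.5 CPM in sham and 13.1, 15.4, 24.4, 14.7 and 12.6 CPM in vehicle. Its log2 fold change was 0.49 ± 0.16 (adjusted p = 0.461) and 0.36 without sham replicate 1. Without vehicle replicate 4 as well, no presynaptic gene passed the unadjusted threshold, against 4.16% of all genes.

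Myelin genes depended on the same library in the opposite sense. With all libraries 3 of 16 tested members were lower and none higher (18.8%, against 6.8% of all genes). The median log2 fold change was -0.10. Sham replicate 1 had the highest myelin mean of the 10 libraries, at 7.44 log2 CPM. Without it 8 members were lower and none higher (50%, against 6.09% of all genes), and the median was -0.24. Cnp, a myelin enzyme, read 392, 282, 317, 310 and 262 CPM in sham and 402, 358, 365, 409 and 372 CPM in vehicle. Apart from sham replicate 1, all sham values lay below all vehicle values, and the log2 fold change went from -0.29 ± 0.10 to -0.38 (adjusted p = 0.418). Mog, a myelin surface glycoprotein, read 45.7 to 73.0 CPM in sham and 59.6 to 76.7 CPM in vehicle. Without vehicle replicate 4 only Cnp was lower (6.25%, near the 5.22% of all genes). Without both libraries 4 members were lower (Cnp, Fa2h, Mbp and Mog), or 25% against 4.16%. Fewer oligodendrocytes, less RNA per oligodendrocyte and uneven tissue content of the libraries cannot be told apart in bulk tissue.

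Glutathione transferases and antioxidant enzymes gave 5 lower and 2 higher members of 34 tested (20.6%, against 6.8% of all genes). The lower ones were Gstp1, Gstm2, Gsta1, Gsto1 and catalase, Cat. Without sham replicate 1, 8 were lower and none higher (23.5%, against 6.09% of all genes). Without vehicle replicate 4, 2 were lower and 1 higher (8.82%, against 5.22%), with Gstp1 and Gstm2 the lower ones in that setting. Cat had its highest value, 61.6 CPM, in vehicle replicate 4, and its log2 fold change of -0.22 was -0.13 without it. Gstm1, another transferase, read 93.8 ± 3.54 and 92.6 ± 5.80 CPM (SD, n = 5 each).

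Of 69 cytosolic ribosomal protein genes tested, 11 were lower and none higher (15.9%, against 6.8% of all genes), with a median log2 fold change of -0.07. Rpl3 read 207.6 to 228.3 CPM in sham and 228.1 to 250.8 CPM in vehicle. Without vehicle replicate 4, 3 were lower (4.35%, below the 5.22% of all genes in that fit), and with the log2 Rn7sl1 percent as a term 22 were lower and 1 higher (33.3%, against 9.5%). All 12 mitochondrially encoded protein genes tested had log2 fold changes below 0, with a median of -0.15. At an unadjusted p under 0.05 stood 1 of them, Mt-co2 (-0.22 ± 0.11), or 8.33% against 6.8% of all genes. With the log2 Rn7sl1 percent as a term the list median was -0.08 and none passed. With the class as a term 2 were lower, Mt-co2 and Mt-co3 (16.7%, against 10.1% of all genes). Mitochondrially encoded proteins took 4.64 ± 0.258% of counts in sham and 5.14 ± 0.501% in vehicle (SD, n = 5 each).

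Genes of the receptors through which ovarian steroids act did not differ detectably. Esr1, the alpha estrogen receptor, read 2.43 ± 0.740 CPM in sham and 2.21 ± 0.481 CPM in vehicle, and Esr2 1.13 ± 0.271 and 1.31 ± 0.417 CPM (SD, n = 5 each). The membrane receptor gene Gper1 was at 0.989 ± 0.262 and 0.913 ± 0.299 CPM. Standard errors of their log2 fold changes were 0.28, 0.40 and 0.40, so small differences were not detectable at this depth. Pgr, the progesterone receptor and a classical estrogen target, was better measured at 23.1 ± 2.43 and 22.01 ± 3.01 CPM, a log2 fold change of 0.07 ± 0.10. Sham replicate 1 was its lowest sham library at 18.9 CPM, with 23.5 to 24.9 CPM in the others. Cyp19a1, the aromatase that makes estradiol, differed by 0.26 ± 0.40. Of 24 receptors and classical targets, 2 were higher and 1 lower at an unadjusted p under 0.05 (12.5%, against 6.8% of all genes). These were Cited2, a transcriptional coregulator (0.26 ± 0.11), the receptor kinase gene Ret, which was at 43.0 CPM in sham replicate 1 and 8.77 to 13.1 CPM in the other sham libraries, and Ncoa1, a coactivator of nuclear receptors (-0.12 ± 0.05). The log2 fold change of Ret went from 0.83 to 0.16 without sham replicate 1, and that of Ncoa1 to -0.08.

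The remaining lists varied in their share of members past the unadjusted threshold, as the plot of shares by list shows. None of 22 amyloid processing and tau genes and none of 26 plasticity and spine actin genes passed it, against 6.8% of all genes. Among 28 immediate-early genes 3 were lower (10.7%, against 6.8%). The activity-dependent factor Npas4 read 2.97 to 7.91 CPM in sham and 4.43 to 19.7 CPM in vehicle. Of 22 interferon and antigen presentation genes 3 were lower (Irf9, Ifit2 and Ifit3), or 13.6% against 6.8%. Without sham replicate 1, 5 were lower (22.7%, against 6.09% of all genes). Among 13 adult neurogenesis genes the proliferation genes Mki67 and Top2a and the progenitor filament gene Nes were lower and Sox11 and Calb2 higher. These made up 38.5% of the list, against 6.8% of all genes. Without sham replicate 1 only Mki67 and Nes passed, both lower (15.4%, against 6.09% of all genes). The same 2 passed without sham replicate 1 and vehicle replicate 4 (15.4%, against 4.16%). Calb2 turned in sign, since its log2 fold change of 0.82 was -0.28 without sham replicate 1. Mki67 was at 1.30 ± 0.334 and 2.05 ± 0.281 CPM (SD, n = 5 each). In the astrocyte list Gfap, the astrocyte filament, read 635 ± 82.4 and 759 ± 79.2 CPM. Of 17 members 4 were lower and 1, Gjb6, was higher (29.4%, against 6.8% of all genes). Log2 fold changes were above 0 in 9 members and below 0 in 8, with a list median of 0.015. Sox9 of that list had no overlap (59.4 to 65.7 against 67.8 to 72.3 CPM). Of 10 dentate granule cell genes 3 were lower and 1 higher (40%, against 6.8% of all genes). Without sham replicate 1, 1 was lower and 1 higher (20%, against 6.09%).

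**Figure D5:**
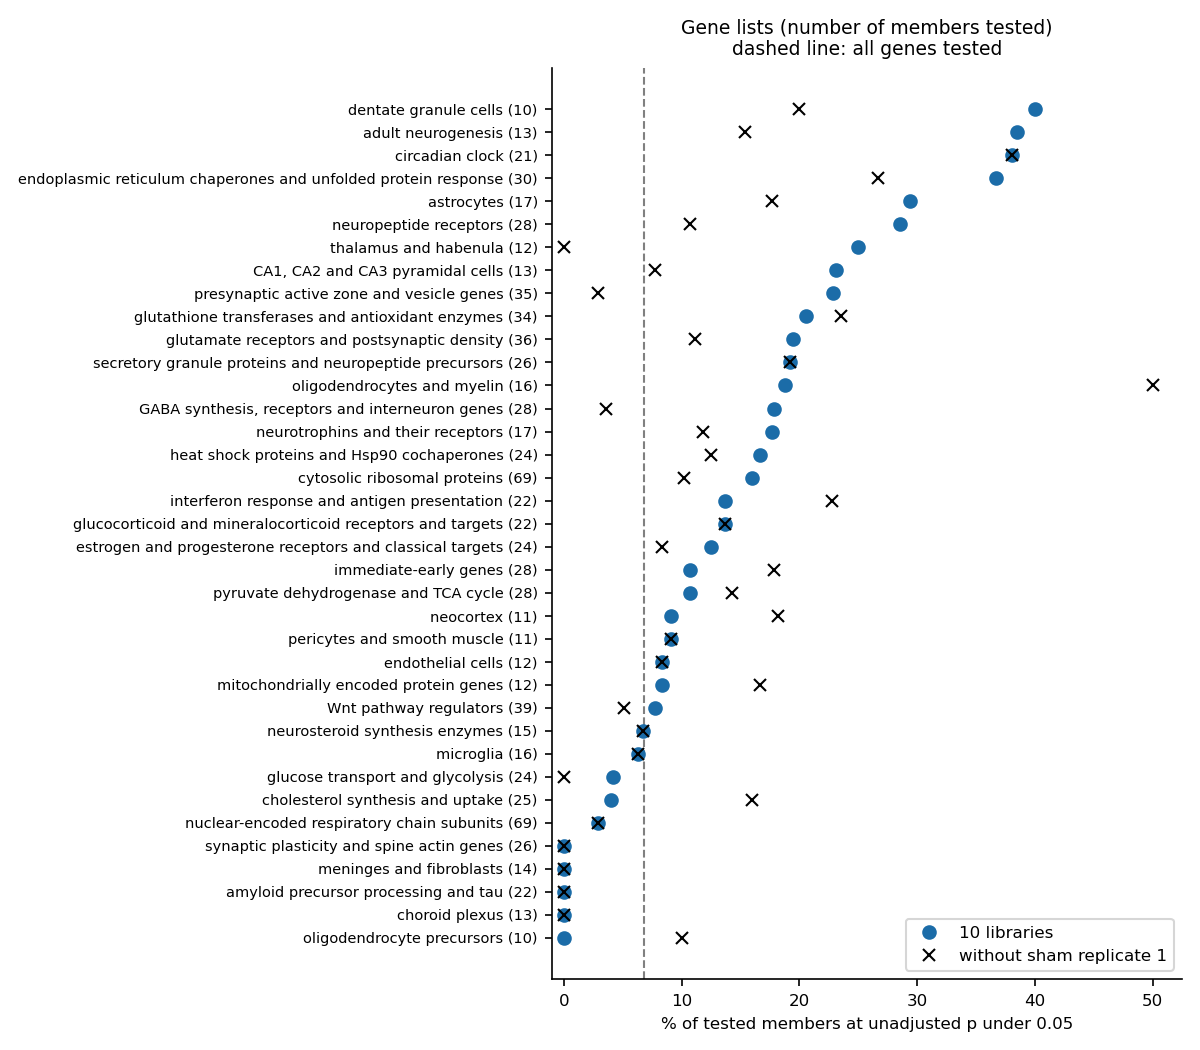
Percent of tested members at an unadjusted p under 0.05 for gene lists with 10 or more tested members, with dots for all 10 libraries, crosses without sham replicate 1 and a dashed line at the 6.8% of all genes. The clock list stays at 38.1% in both, the endoplasmic reticulum list goes from 36.7% to 26.7%, the thalamus list from 25% to 0% and the myelin list from 18.8% to 50%.

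Ovariectomised rats given estradiol give the level of the same genes with the hormone replaced. Their Rn7sl1 share was 4.99 to 5.88%, above vehicle in every library, and their values are given beside the other groups since comparisons with vehicle would share its libraries. For 7 genes, picked after their values were seen, the estradiol mean lay near sham: Dbp at 61.6 ± 3.26 CPM, Per3 at 47.8 ± 2.29, Nr1d2 at 69.8 ± 3.87, Gstp1 at 50.0 ± 4.75, Hspa5 at 283 ± 24.5, Stip1 at 139 ± 6.13 and Vgf at 129 ± 10.8 (SD, n = 5 each). The estradiol minus sham differences of these genes were between -0.09 and 0.14 on the log2 scale, with standard errors of 0.05 to 0.14. The largest was that of Vgf, which read 113.6 to 143.4 CPM in estradiol and 112.7 to 120.0 CPM in sham. Tacr3 was at 5.58 ± 0.998 CPM, nearer vehicle, and its estradiol minus sham difference was -0.65 ± 0.17 (edgeR adjusted p = 0.522). Tpbg was between the groups at 9.01 ± 2.13 CPM (-0.63 ± 0.21; adjusted p = 0.648), and Nr3c2 was at 106 ± 6.63 CPM (0.28 ± 0.08; adjusted p = 0.604). No gene was called between estradiol and sham by edgeR (percent called 0), with 2 called by DESeq2 and 2 by limma with quality weights, 1 of the latter being Tacr3. Cnp in the estradiol libraries read 267 to 298 CPM, below every vehicle library. The myelin list averaged 7.16 log2 CPM in vehicle, 7.04 in sham and 6.88 in estradiol. In tamoxifen, raloxifene, exemestane and anastrozole it averaged 6.95, 6.97, 6.92 and 6.92. Hspa5 averaged 259, 256, 241 and 238 CPM in those drug groups and 215 CPM in vehicle. Stip1 averaged 134, 126, 124 and 127 CPM in them and 118 CPM in vehicle.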

How the data were processed

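Salmon estimated counts per gene, which the authors deposited as whole numbers not scaled for depth, per the submitters' processing notes. A second table of normalized signal, deposited by the authors and made with DESeq2 per the same notes, scales each library's counts gene by gene rather than by 1 size factor, and it served only as an alternative scaling. Versions, annotation and build are not given in the sources used here. Per the labels' protocols, stranded poly(A) libraries of RNA with a quality value above 7 were read as 100 bp pairs with a target of 30 M reads.

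Expected counts were tested with edgeR 4.0.16 under R 4.3.3 (TMM factors, filterByExpr by group, quasi-likelihood F-test with robust estimation) across the 35 libraries of 7 groups, which share 1 estimate of the spread. Of 15059 genes, 14411 were tested, and p-values were adjusted by Benjamini-Hochberg over them. CPM uses TMM-scaled totals, and log2 CPM a prior count of 2. DESeq2 1.42.0 and limma 3.58.1 gave alternatives. The edgeR script was tested on simulated data. Replicates of a group differed by 3.33 to 23.4 times counting error in sham and 3.98 to 13.3 times in vehicle (chi-squared per degree of freedom), so none was a duplicate. Replicate numbers follow accession order.

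The comparison, the 39 gene lists and the tests were chosen with earlier results of these data known. Named genes were the 20 of smallest p, the 10 largest differences each way without overlap at an unadjusted p under 0.01, genes called with an Rn7sl1 term, up to 5 members per list at an unadjusted p under 0.05, and fixed receptor and marker genes, all with symbols and a mean of at least 1 CPM. Further list members, and Nr1d2 and Cnp under estradiol, were named after their values were seen. Promoters are RefSeq's (GRCr8), matched by symbol for 99 of 129 named genes and 10427 of the tested genes. A few genes are left unreported here.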

Additional observations from a re-analysis of the deposited data

Results flagged for a closer look

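Of 120 groups of 5 values examined, 16 held a library whose gap to the nearest of the others was over 0.71 of the group's range. In independent groups of normal values, not chosen by their data, about 1 in 20 would be flagged. Many genes here were chosen from these same libraries, so this rate does not measure an excess over chance.

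Sham replicate 1 accounted for 9 of them. Its thalamus and habenula mean was 4.49 log2 CPM (3.19 to 3.56 in the other sham libraries) and its pyramidal cell mean 5.37 (5.74 to 5.82). Tcf7l2 stood at 90.7 CPM there, Grin2d at 43.5, Phlda3 at 28.3, Tmem132c at 11.4 and Mab21l1 at 9.98 CPM, each above the others, as was Stip1 at 153 CPM. Pgr was the lowest of its group there at 18.9 CPM.

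Vehicle replicate 4 had an Rn7sl1 share of 3.44% (4.68 to 4.84% in the others), and Tmem145 was lowest there at 21.1 CPM (31.2 to 33.7). Per3 was lowest in vehicle replicate 2 at 53.1 CPM (62.3 to 64.0), as was Tcf7l2 at 9.46 CPM (11.6 to 12.3). In vehicle replicate 3 Camk1g was highest at 21.5 CPM (18.9 to 19.5) and Spn lowest at 2.15 CPM (2.82 to 3.09). Vrk1 was lowest in sham replicate 2 at 7.21 CPM (8.15 to 8.45).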

How the results depend on the processing

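The count of genes called by edgeR between sham and vehicle was 0, with 980 at an unadjusted p under 0.05. It became 12 with DESeq2, 8 with limma and quality weights, 6 with Rn7sl1 class as a term, 3 with the authors' per-gene factors and 2 with thalamus and choroid plexus scores as terms (Tacr3 and Etv5), and ran from 0 to 4 when 1 library was left out. The 4 came without sham replicate 1 (Tacr3, Etv5, Per3 and Apod), 2 without sham replicate 5 (Tpbg and Dbp) and 1 without vehicle replicate 1 (Mt-ENSRNOG00000030478). DESeq2 and limma each called 2 genes between estradiol and sham. Without sham replicate 1 and vehicle replicate 4 together, an alternative chosen after seeing the data, 603 genes had an unadjusted p under 0.05 (758 to 1065 with 1 library left out) and 667 had no overlap; leaving out 1 library gave 306 to 469 without overlap (211 with all), since fewer values overlap less often. The Rn7sl1 difference of 0.469 points reached an exact p of 0.0397 without sham replicate 3 (0.588 points, 4 against 5), ran from 0.209 to 0.588 points when 1 library was left out, and was 0.107 points without sham replicate 1 and vehicle replicate 4 together. Of 46 genes named first, 41 kept their direction in every alternative that gave a value (21 to 23 of the 23, since filters dropped low genes in some). The others turned in sign, none of them called, and the cause was not tested. Esr1 was -0.0196 without both libraries (0.0264 to 0.303 over single libraries left out). Gper1 was -0.0291 with limma, -0.00561 in libraries of at least 4% Rn7sl1, -0.0623 without sham replicate 1, -0.00105 without vehicle replicate 4 and -0.191 without both (highest 0.267, without vehicle replicate 3). The Rn7sl1 gene was -0.0142 with its own log2 percent as a term, -0.00554 with class and -0.0326 with the authors' factors. Tcf7l2 was -0.0141 without sham replicate 1 and -0.00644 without both (highest 1.5, without sham replicate 5). Ttr was 0.316 with limma, 0.00643 with the Rn7sl1 term, 0.220 with class, 0.769 in libraries of at least 4% Rn7sl1, 0.127, 0.128, 0.207 and 0.777 without sham replicates 4 and 5 and vehicle replicates 3 and 4, and 0.49953 without both (-0.689 to 0.777 over single libraries left out). No paired analysis was possible because replicate numbers follow accession order and the labels tie no sham library to a vehicle library. Genes near 1 CPM are limited by depth, and the labels name no batch.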

Other observations

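The other 4 treated groups place the sham and vehicle levels of the genes of smallest p, given here as values with no test and chosen after they were seen. Every group but sham was ovariectomised, and mean Rn7sl1 ran from 3.38% in raloxifene to 5.41% in estradiol. For Dbp and Per3 vehicle was the highest of the 7 groups, which did not hold for every clock gene: Nr1d2 averaged 95.7 CPM in vehicle and 106.9 CPM in raloxifene. Dbp averaged 87.8 ± 8.26 CPM in vehicle (SD, n = 5 in this and each value below), 60.1 ± 9.42 in sham and 61.6 ± 3.26 in estradiol, and the 4 drug groups ran from 56.5 ± 6.22 (raloxifene) to 71.3 ± 10.8 (anastrozole). Per3 averaged 61.1 ± 4.49 CPM in vehicle, and the other 6 means ran from 44.9 to 52.9. Gstp1 was likewise highest in vehicle (63.7 ± 2.34 CPM), with the other means from 47.4 to 56.5 CPM.

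For Tacr3 and Nr3c2 it was sham that lay outside the rest. Tacr3, the neurokinin B receptor, averaged 8.82 ± 1.88 CPM in sham and between 4.92 and 6.29 CPM in the 6 ovariectomised groups. Nr3c2, the mineralocorticoid receptor, averaged 87.1 ± 12.4 CPM in sham and between 105.6 and 111.4 CPM in the ovariectomised groups. Tpbg averaged 13.8 ± 5.84 CPM in sham and between 6.53 and 9.01 CPM in the others. Vgf followed neither order: it was at 116 ± 2.93 CPM in sham and 129 ± 10.8 in estradiol, and between 66.9 and 92.9 CPM in the other 5 groups, with its lowest mean in raloxifene, the group of lowest Rn7sl1. With the Rn7sl1 class as a term, the sham minus vehicle difference of Vgf was 0.40 on the log2 scale, against 0.49 without it.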
